A study of Mus musculus with 16 samples.

Results

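The RNA of 10 imprinted genes was followed in embryoid bodies of mouse embryonic stem cells before and after exposure to retinoic acid. The genes H19, Igf2, Meg3, Dlk1, Peg3, Peg10, Mest, Cdkn1c, Grb10 and Plagl1 were taken by symbol from the 33702 RefSeq transcripts (NM for messenger RNA, NR for non-coding RNA) of the deposited expression table, whose rows stand for 24170 genes. Of the 10 genes, 9 had rows, 22 in all. The accessions that RefSeq lists for H19 matched no row, so H19 was not analysed here.

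Bodies were grown for 4 days from R1 cells, a mouse embryonic stem cell line, in medium without Lif, the cytokine that holds such cells undifferentiated. RNA taken at that point is called day 0 (0 µM retinoic acid), and RNA taken after 4 more days in 2 µM retinoic acid is called day 4. There were 2 RNA samples per day, and each was split into 4 vials that received spike-in mixes 1 to 4 of synthetic transcripts, mix 4 being without the in vitro transcribed set. The 16 libraries are therefore 4 RNA samples, and no body was kept for 4 days without retinoic acid, so the drug and the added time in culture cannot be told apart. Levels are FPKM, the number of sequenced fragments relative to the length of the transcript and the size of the library, summed over the transcripts of a gene.

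An imprinted gene is transcribed mainly from the copy inherited from 1 parent, because DNA methylation laid down in the egg or sperm marks one copy of a control region. The genes lie in clusters that share such a region, and many of them set the growth of the embryo and placenta: paternally expressed genes often favour growth and maternally expressed genes often restrain it. Many are strongly expressed in embryonic mesoderm, endoderm and placenta and fall silent after birth. FPKM values add up both parental copies, so neither the active copy nor a loss of imprinting can be read from them.

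The level of GC-rich transcripts differed between libraries. In the mix 3 and mix 4 vials of RNA 2 of day 0, transcripts in the highest of 20 GC bins (at least 59.4% GC) lay at -1.78 and -1.46 on the log2 scale relative to the mean of all libraries. The other 6 day 0 libraries lay at 0.69 to 1.98 and the 8 day 4 libraries at -1.12 to -0.21, so this measure also moved with the day. The coefficient of variation of the 9 genes over the 4 vials of 1 RNA had a median of 4.79% (range 0.621% to 14.9%) in the other 3 RNA samples and of 15.4% (7.25% to 65.0%) in RNA 2 of day 0. Results are given with all libraries and, where it matters, without these 2 vials.

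Among the 9 genes, 5 rose from day 0 to day 4, 2 fell and 2 did not pass the test (limma on log2(FPKM + 0.1) of the RNA samples, Benjamini-Hochberg adjusted p of at most 0.05 over all 20497 genes). Plagl1, Dlk1, Cdkn1c, Igf2 and Peg3 were higher at day 4, Meg3 and Peg10 were lower, and Grb10 and Mest were not called. The background was high: 16% of all genes were called higher and 14.5% lower. The median log2 fold change was 0.92 over the 9 genes and -0.02 over all genes. In 6 of the 9 genes all 8 day 4 libraries lay above all 8 day 0 libraries, against 19.8% of all genes, and in 1 gene they lay below, against 14.6%.

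**Figure D1:**
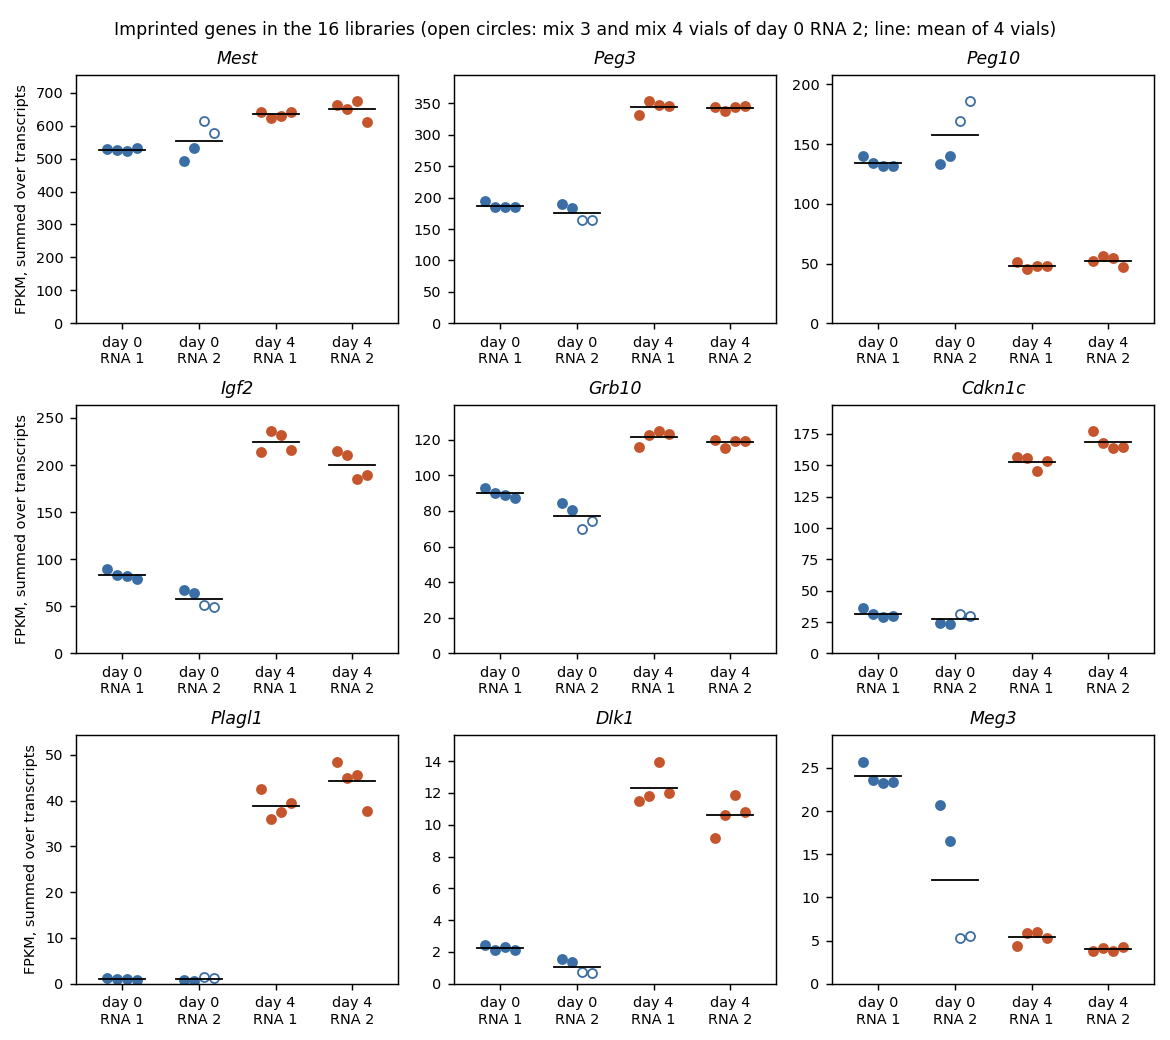
FPKM of 9 imprinted genes, summed over their transcripts, in the 16 libraries; each point is a vial, lines are the means of 4 vials, and open circles are the mix 3 and mix 4 vials of RNA 2 of day 0. Plagl1 stands near 1 FPKM in all day 0 libraries and at 36.0 FPKM or more at day 4, while the open circles of Meg3 lie among its day 4 points.

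Sequences at the starts of Mest and Grb10 come first, because for these genes the table holds transcripts from different starts whose shares differed between libraries. They are the 250 bases before each start, from RefSeq (build GRCm38.p6), written 5′ to 3′ on the strand of the gene, with CpG dinucleotides, the sites of DNA methylation, in capitals.
Mest upstream start, chr6:30733256-30733505 (+), before NM_001252293: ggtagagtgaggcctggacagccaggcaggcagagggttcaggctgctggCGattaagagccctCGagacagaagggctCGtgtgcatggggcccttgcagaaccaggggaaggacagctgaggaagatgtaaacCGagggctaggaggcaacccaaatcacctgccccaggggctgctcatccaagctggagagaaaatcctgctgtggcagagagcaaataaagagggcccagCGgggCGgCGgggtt
Mest downstream start, chr6:30737800-30738049 (+), before NM_008590: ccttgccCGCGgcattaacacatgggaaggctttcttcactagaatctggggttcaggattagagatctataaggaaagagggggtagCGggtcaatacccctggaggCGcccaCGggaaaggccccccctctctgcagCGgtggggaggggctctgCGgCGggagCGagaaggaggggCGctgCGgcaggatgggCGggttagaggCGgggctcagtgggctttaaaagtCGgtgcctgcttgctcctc
Grb10 upstream start, chr11:12037421-12037670 (-), before NM_010345: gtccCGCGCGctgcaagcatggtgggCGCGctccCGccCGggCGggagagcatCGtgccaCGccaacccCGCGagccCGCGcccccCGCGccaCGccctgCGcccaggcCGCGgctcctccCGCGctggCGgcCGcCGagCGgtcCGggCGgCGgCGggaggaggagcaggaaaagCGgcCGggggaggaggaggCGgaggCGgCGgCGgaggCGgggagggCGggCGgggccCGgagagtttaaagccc
Grb10 downstream start, chr11:12027972-12028221 (-), before NM_001177629: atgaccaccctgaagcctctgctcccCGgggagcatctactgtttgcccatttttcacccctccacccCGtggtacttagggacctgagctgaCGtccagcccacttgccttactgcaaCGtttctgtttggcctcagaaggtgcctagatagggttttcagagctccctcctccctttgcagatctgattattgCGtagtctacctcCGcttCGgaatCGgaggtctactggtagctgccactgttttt
At Mest the upstream start had 7 CpG in 60.8% GC and the downstream start 14 CpG in 62.4% GC. At Grb10 the upstream start had 40 CpG in 81.2% GC, more CpG than 98.7% of the 32851 windows of the same length, and the downstream start had 8 CpG in 54% GC. Windows were listed for 7 of the 10 genes, 14 in all, and 2 of the Mest windows overlap almost wholly. The letters AGGTCA, a half-site of retinoic acid receptors, were found on either strand in 2 of the 14 (1 each of Igf2 and Meg3), against 14.02% of all windows. No transcript of the expression table starts within 100 bases of the start behind that Igf2 window. The Meg3 window lies before NR_003633. The letters TATAAA were found in 1 (Meg3), against 12.4%.

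Plagl1 (chr10:13090832-13131694) had the largest rise. It encodes a paternally expressed zinc finger transcription factor that restrains the cell cycle and acts on other imprinted genes. Its 8 day 0 libraries ranged from 0.659 to 1.495 FPKM (median 1.055) and its 8 day 4 libraries from 36.0 to 48.5 (median 41.0). The ranges were far apart, and the 2 divergent vials, at 1.495 and 1.326, were the highest of day 0. The means were 1.07 ± 0.012 FPKM at day 0 and 41.5 ± 3.75 at day 4 (SD, n = 2 RNA samples). This was a 35.5-fold rise (log2 5.15, SE 0.17, limma adjusted p = 0.0046).

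Cdkn1c (chr7:143458339-143461059), the maternally expressed inhibitor of cyclin-dependent kinases p57, rose as well. Day 0 libraries ranged from 23.3 to 36.0 FPKM (median 29.9) and day 4 libraries from 145.5 to 176.9 (median 159.9), with no overlap. The means were 29.4 ± 3.05 and 160.4 ± 10.8 FPKM (SD, n = 2). The log2 fold change was 2.44 (SE 0.16, 5.44-fold, limma adjusted p = 0.0052). After a correction of each library for GC content it was 3.55 with an interval of 0.93 to 6.18, and with that correction and without the 2 divergent vials it was 4.33 (SE 0.22). Its transcripts have 59.4% GC on average. The main one, NM_009876, has 59.390%, just above the 59.386% at which the highest GC bin begins. The level of Cdkn1c had a Spearman rho with that of the GC-rich transcripts of 0.238 within day 0 and -0.762 within day 4. The part of GC content in the rise was not tested.

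Both growth-related genes of the chromosome 7 and chromosome 12 clusters, Igf2 and Dlk1, went up. Igf2 (chr7:142650768-142666816) encodes a paternally expressed fetal growth factor. Its day 0 libraries ranged from 49.3 to 89.3 FPKM (median 73.0) and its day 4 libraries from 185.2 to 235.7 (median 214.3). The ranges did not overlap, and within day 0 the 2 divergent vials, at 51.4 and 49.3, were the lowest. The means were 70.7 ± 18.01 and 212.3 ± 17.2 FPKM (SD, n = 2), a 3.04-fold rise (log2 1.61, SE 0.24, limma adjusted p = 0.0193).

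Dlk1 (chr12:109452485-109463336) encodes a paternally expressed membrane protein related to Notch ligands that holds back the differentiation of several precursor cells. It ranged from 0.648 to 2.42 FPKM at day 0 (median 1.84) and from 9.16 to 13.97 at day 4 (median 11.6). The libraries of the days did not overlap. The means were 1.65 ± 0.816 and 11.5 ± 1.1996 FPKM (SD, n = 2), or 6.96-fold (log2 2.80, SE 0.40, limma adjusted p = 0.0185). With the GC correction the log2 fold change was 3.88.

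Peg3 (chr7:6703892-6730462), a paternally expressed zinc finger gene, was already in the top of the expression range at day 0, above 98.0% of the genes. Its libraries ranged from 164.4 to 194.4 FPKM at day 0 (median 184.5) and from 330.7 to 353.4 at day 4 (median 344.9). The days were separate, and the RNA samples of day 4 were close together. The means were 181.4 ± 8.14 and 343.7 ± 0.674 FPKM (SD, n = 2), a 1.90-fold rise (log2 0.92, SE 0.15, limma adjusted p = 0.0220).

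Peg10 (chr6:4747306-4760517) moved the other way. It is a paternally expressed gene that derives from a retrotransposon and is required for the placenta. Day 0 libraries ranged from 131.3 to 185.9 FPKM (median 137.2) and day 4 libraries from 45.6 to 56.5 (median 49.7). The ranges did not overlap, and the highest values were those of the 2 divergent vials (169.6 and 185.9 FPKM). The means were 145.8 ± 16.2 and 50.4 ± 2.99 FPKM (SD, n = 2), 2.88-fold higher at day 0 (log2 -1.53, SE 0.16, limma adjusted p = 0.0102). The table lists 2 RefSeq transcripts of Peg10, and their values were equal in all 16 libraries.

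Meg3 (chr12:109540996-109571729), a maternally expressed long non-coding RNA of the Dlk1 cluster, was called lower. Its day 0 libraries ranged from 5.24 to 25.7 FPKM (median 22.0) and its day 4 libraries from 3.83 to 5.95 (median 4.34). The days overlapped, because the mix 3 and mix 4 vials of RNA 2 held 5.24 and 5.57 FPKM while the mix 1 and mix 2 vials of the same RNA held 20.7 and 16.5. The means were 18.01 ± 8.50 and 4.71 ± 0.959 FPKM (SD, n = 2), 3.59-fold higher at day 0 (log2 -1.84, SE 0.41, limma adjusted p = 0.0434). Without the 2 vials the log2 fold change was -2.16 (SE 0.22, limma adjusted p = 0.0037) and the libraries did not overlap, whereas with the GC correction it was -0.84 (limma adjusted p = 0.0076). The call was lost without the mix 1 vial of RNA 1 of day 4 (limma adjusted p = 0.0537) and without RNA 1 of day 0 (limma adjusted p = 0.0800). The level of Meg3 over the libraries of a day ran with that of the GC-rich transcripts (Spearman rho 0.976 at day 0 and 0.905 at day 4, 8 libraries from 2 RNA samples each, a description). So did Grb10 (1.00 and 0.714), Igf2 (0.976 and 0.810), Dlk1 (0.905 and 0.548) and Peg3 (0.762 and 0.738). The rho was negative for Peg10 (-0.476 and -0.810), Mest (-0.619 and -0.810) and Plagl1 (-0.190 and -0.881). For Cdkn1c it was 0.238 and -0.762. The part of the GC-rich transcripts in the fall of Meg3 was not tested.

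Grb10 and Mest did not pass. Grb10 (chr11:11930499-12037428) encodes an adaptor protein that dampens insulin and IGF receptor signalling and is expressed from the maternal copy in most tissues and from the paternal copy in neurons. It ranged from 69.7 to 93.1 FPKM at day 0 (median 85.8) and from 115.4 to 124.6 at day 4 (median 119.7), with no overlap. The means were 83.4 ± 8.97 and 120.1 ± 2.19 FPKM (SD, n = 2), and the log2 fold change was 0.53 (SE 0.15, 95% interval 0.10 to 0.96, limma adjusted p = 0.0718). Without the 2 divergent vials it was 0.48 and was called (limma adjusted p = 0.0110). With the GC correction it was 0.44 and was also called (limma adjusted p = 0.0156). It was called as well with the replicate number as a block (log2 0.53, limma adjusted p = 0.0434).

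Mest (chr6:30733506-30748466), a paternally expressed gene for an enzyme of the hydrolase fold and a marker of embryonic mesoderm, was the most abundant of the 9 on both days. It ranged from 492.8 to 613.8 FPKM at day 0 (median 529.5) and from 610.1 to 674.2 at day 4 (median 641.1). The days overlapped only through the mix 3 vial of RNA 2 of day 0. The means were 540.7 ± 18.9 and 641.6 ± 10.6 FPKM (SD, n = 2), and the log2 fold change was 0.25 (SE 0.16, 95% interval -0.21 to 0.71, limma adjusted p = 0.311). Without the 2 vials it was 0.30 and was called (limma adjusted p = 0.0373), but with the GC correction its sign turned, to -0.06 (limma adjusted p = 0.648). The direction of a small change in Mest therefore differed between ways of scaling the values.

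Without the 2 vials 7 of the 9 genes were called higher and 2 lower, while the share of all genes called rose to 27.1% higher and 33.6% lower. In the 2 vials the level of GC-rich transcripts was below that of any day 4 library, in contrast to the rest of day 0. Set against day 4 on their own, the 2 vials lay below all day 4 libraries in Plagl1, Cdkn1c, Igf2, Dlk1, Peg3 and Grb10. They lay above them in Peg10 and within or overlapping them in Meg3 and Mest. How many of all genes were set apart in this way was not counted, so these positions are a description. The part of the GC-rich transcripts in them was not tested. With the replicate number as a block 6 of the 9 genes were called higher, Grb10 being added, and 2 lower, where 22.5% and 29.1% of all genes were called. With RNA 1 or RNA 2 of day 4 left out, no gene of the 20497 reached the threshold in limma (smallest adjusted p = 0.0653 and 0.0633, with 4935 and 4716 genes at an unadjusted p of at most 0.05), so the calls of these fits bear on no single gene. The log2 fold changes in these fits were 5.24 and 5.06 for Plagl1, 2.69 and 2.91 for Dlk1, 2.51 and 2.38 for Cdkn1c, and 1.52 and 1.69 for Igf2. They were 0.92 in both for Peg3, -1.47 and -1.59 for Peg10, and -2.05 and -1.64 for Meg3. When features at 0 in all libraries were kept in the fit, Igf2 (limma adjusted p = 0.0523), Dlk1 (0.0550) and Meg3 (0.110) lost their calls. With the mix 4 vials alone, Cdkn1c and Plagl1 kept theirs.

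**Figure D2:**
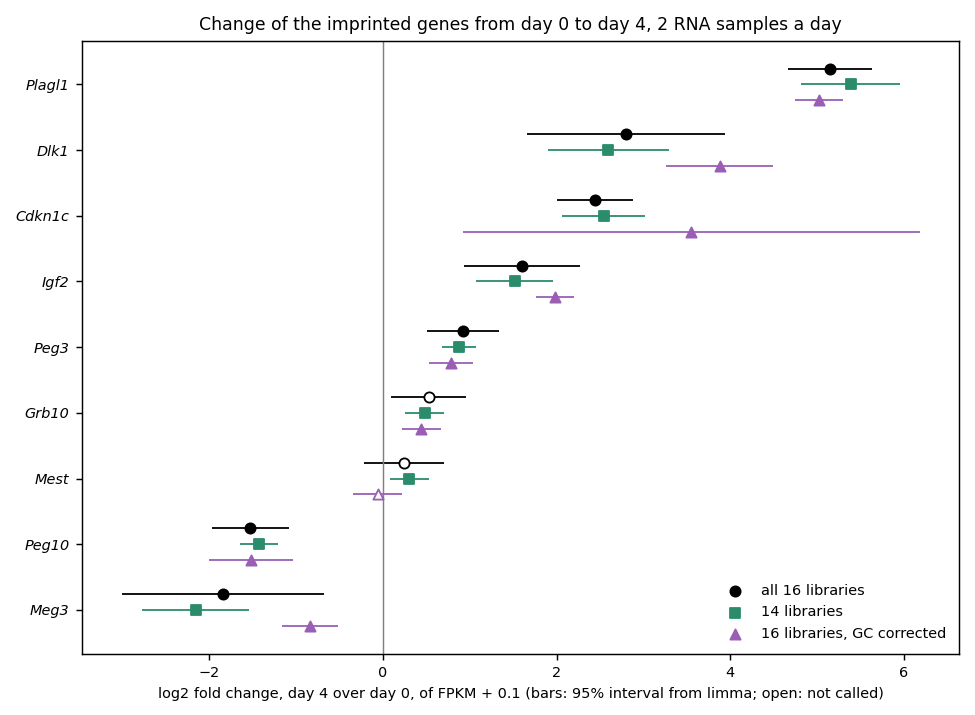
Log2 fold changes (day 4 over day 0, FPKM + 0.1) of the 9 genes with 95% intervals from limma, for all 16 libraries, for 14 libraries without the 2 divergent vials, and after GC correction; filled symbols were called. Plagl1 lies near 5 in each setting, and Mest crosses 0 after the correction.

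Of the 22 transcripts, 5 were called higher and 3 lower at day 4, where 10.2% and 8.67% of all 28214 transcripts tested were called. Without the 2 divergent vials 7 were higher and 9 lower, against 22.2% and 28.9% of all transcripts. With the replicate block 6 were higher and 7 lower, against 14.7% and 20.9%. The 2 Peg10 transcripts had equal values in all 16 libraries, so they pass or fail together. Both were among the 3 called lower, and any count that includes them counts 1 set of values 2 times. The reads of a gene are divided between overlapping transcripts by the quantification software, so that a single transcript is less certain than the sum.

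In Mest 1 of the 3 transcripts was called. NM_008590, from the downstream start, held 140.4, 98.2, 100.1 and 89.3 FPKM in the vials of RNA 1 of day 0 and 41.1, 12.6, 0.167 and 0.164 FPKM in those of RNA 2. At day 4 it ranged from 0 to 0.997 FPKM. It was thus at the day 4 level in the 2 divergent vials, and it was called lower (log2 -5.96, SE 1.16, limma adjusted p = 0.0466). NM_001252293, from the upstream start, ranged from 373.3 to 611.5 FPKM at day 0 and from 607.7 to 672.2 at day 4 and was not called (log2 0.45, limma adjusted p = 0.211). It made up 77.2% and 96.8% of the Mest FPKM in the 2 RNA samples of day 0, and 99.5% and 99.7% at day 4. NM_001252292, which starts 3 bases from NM_008590, ranged from 1.82 to 14.7 FPKM at day 0 and from 0.456 to 2.75 at day 4 (log2 -2.05, limma adjusted p = 0.116). NM_008590 has only 3 bases that no other Mest transcript holds, so the split between it and NM_001252292 is uncertain.

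The first exon of NM_008590 has 286 bases with 69.6% GC, and that of NM_001252293 has 108 bases with 53.7% GC (GENCODE models of GRCm38). The share of NM_008590 in Mest ran with the level of GC-rich transcripts within day 0 (Spearman rho 0.976) and within day 4 (0.905), each over 8 libraries from 2 RNA samples. Its part in the difference between the days was not tested.

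In Grb10 neither transcript was called with all libraries. NM_001177629, from the downstream start, held 0.589 to 2.26 FPKM in 6 day 0 libraries, 35.3 and 26.9 FPKM in the 2 divergent vials, and 9.09 to 41.8 FPKM at day 4. The 2 vials thus lay inside the day 4 range, and the change was not called (log2 2.41, SE 1.45, limma adjusted p = 0.294). Without these vials it was called (log2 4.05, limma adjusted p = 0.0095). NM_010345, from the upstream start, ranged from 34.4 to 91.7 FPKM at day 0 and from 78.2 to 115.5 at day 4 (log2 0.35, limma adjusted p = 0.397). The 69 bases found only in NM_001177629 have 46.4% GC and the 375 found only in NM_010345 have 60.5%. The share of NM_001177629 was highest where GC-rich transcripts were lowest, at 50.6% and 36.4% in the 2 vials, 7.29% to 34.9% at day 4 and 0.675% to 2.82% in the rest of day 0 (Spearman rho -0.619 within day 0 and -0.905 within day 4). The part of this measure in the share was not tested.

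**Figure D3:**
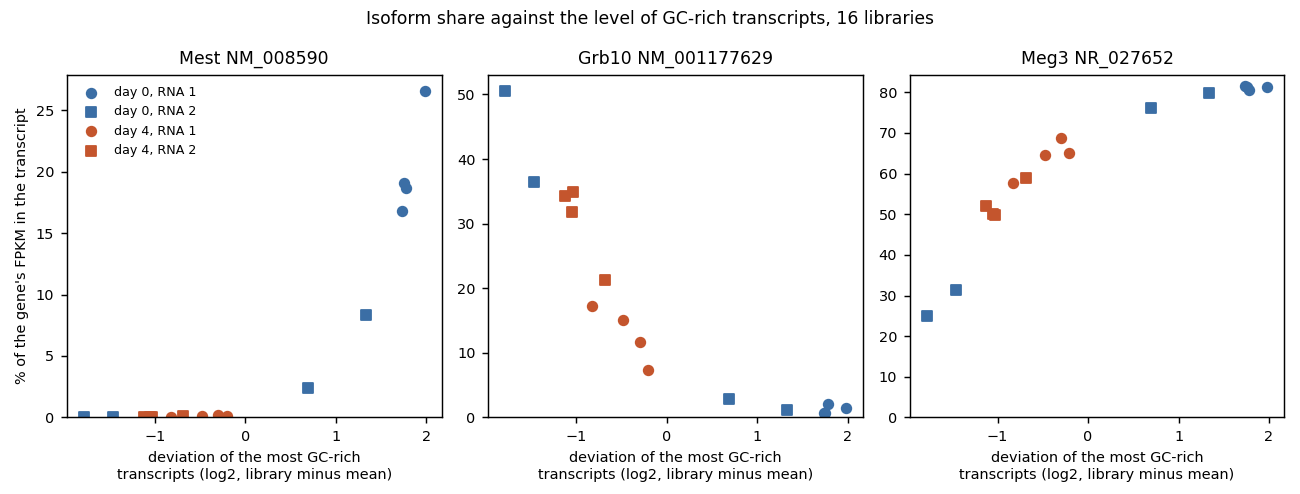
Share of 1 transcript in the FPKM of its gene (y, percent) against the level of the most GC-rich transcripts (x, log2 relative to the mean of 16 libraries) for Mest NM_008590, Grb10 NM_001177629 and Meg3 NR_027652. In Grb10 and Meg3 the mix 3 and mix 4 vials of RNA 2 of day 0, at the left, lie beyond the day 4 libraries, and the rest of day 0 lies at the right.

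In Meg3 NR_027652 made up 81.1% of the FPKM in RNA 1 of day 0, and 64.4% and 52.8% in the RNA samples of day 4. In RNA 2 of day 0 it made up 78.1% in the mix 1 and mix 2 vials and 28.2% in the 2 divergent vials, where NR_003633 held 73.0% and 67.4%. NR_027652 ranged from 1.31 to 20.9 FPKM at day 0 and from 1.90 to 4.06 at day 4 (log2 -2.16, limma adjusted p = 0.0726). NR_003633, a transcript of 14548 bases that starts further downstream, did not show the split between vials. It held 3.31 to 3.87 FPKM in all 8 day 0 libraries, the divergent vials included, and 1.64 to 2.00 FPKM at day 4. Its days did not overlap, although the test was not passed with all libraries (log2 -0.95, SE 0.22, limma adjusted p = 0.0603). Without the 2 vials it was called lower (log2 -0.91, limma adjusted p = 0.0125). It has 49.2% GC, against 57.4% in NR_027652.

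In Igf2 the transcript NM_001122737 carried the rise, from 47.5 to 72.5 FPKM at day 0 to between 180.4 and 230.5 at day 4 (log2 1.77, limma adjusted p = 0.0207). NM_001122736, from a start further upstream, held 8.03 to 13.1 FPKM in RNA 1 of day 0 and 6.09, 3.14, 0 and 0 FPKM in the vials of RNA 2. At day 4 it ranged from 0 to 1.46 FPKM (log2 -2.92, limma adjusted p = 0.0978). Its share ran with the level of GC-rich transcripts within day 0 (Spearman rho 0.970, against 0.220 within day 4), and the bases found only in it have 62.8% GC, against 52.7% in NM_001122737. The bases found only in NM_010514 have 67.9% GC. The share of this transcript was 3.82% in the 2 divergent vials, 4.57% at day 0 without them and 2.18% at day 4. The part of GC content in the shares of the Igf2 transcripts was not tested. NM_010514 was not called (log2 0.55, limma adjusted p = 0.348).

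The rise of Cdkn1c was placed by the quantification in NM_009876, with 21.4 to 31.5 FPKM at day 0 and 145.5 to 176.9 at day 4 (log2 2.62, limma adjusted p = 0.0155). Only 54 bases of NM_009876 and 41 of NM_001161624 are in no other Cdkn1c transcript, so the split between them is uncertain. NM_001161624 ranged from 0 to 7.27 FPKM at day 0, with 0 in both divergent vials, and from 0 to 1.67 at day 4 (log2 -2.38, limma adjusted p = 0.158). The quantification placed the rise of Dlk1 in NM_001190703. This transcript was listed at 0 in 5 day 0 libraries, reached at most 0.648 FPKM in the others and stood at 8.02 to 10.8 FPKM at day 4 (log2 5.501, limma adjusted p = 0.0314). It has 0 bases that no other Dlk1 transcript holds, and NM_010052 has 36, so the split between them is uncertain. NM_001190703 was the leading Dlk1 transcript at day 4, with 75.2% and 89.7% of the FPKM in the 2 RNA samples. NM_010052 made up 87.2% in RNA 1 of day 0. In RNA 2 of day 0 NM_001190703 held 31.5% and NM_010052 held 26.9%, but the vials were split. NM_001190703 held 0% and 13.9% in the mix 1 and mix 2 vials and 70.7% and 100% in the 2 divergent vials. The day 4 libraries ranged from 67.4% to 97.1%. NM_010052 held 36.2% and 43.8% in the mix 1 and mix 2 vials and 0% in both divergent vials. All Dlk1 transcripts together were at 0.737 and 0.648 FPKM in the divergent vials. NM_010052 was not called (log2 0.57, limma adjusted p = 0.714). The share of NM_001190703 was higher where GC-rich transcripts were lower (Spearman rho -0.846 within day 0 and -0.881 within day 4, 8 libraries each). The part of this measure in the share was not tested. The other Dlk1 transcripts stayed at 1.04 FPKM or below in every library.

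**Figure D4:**
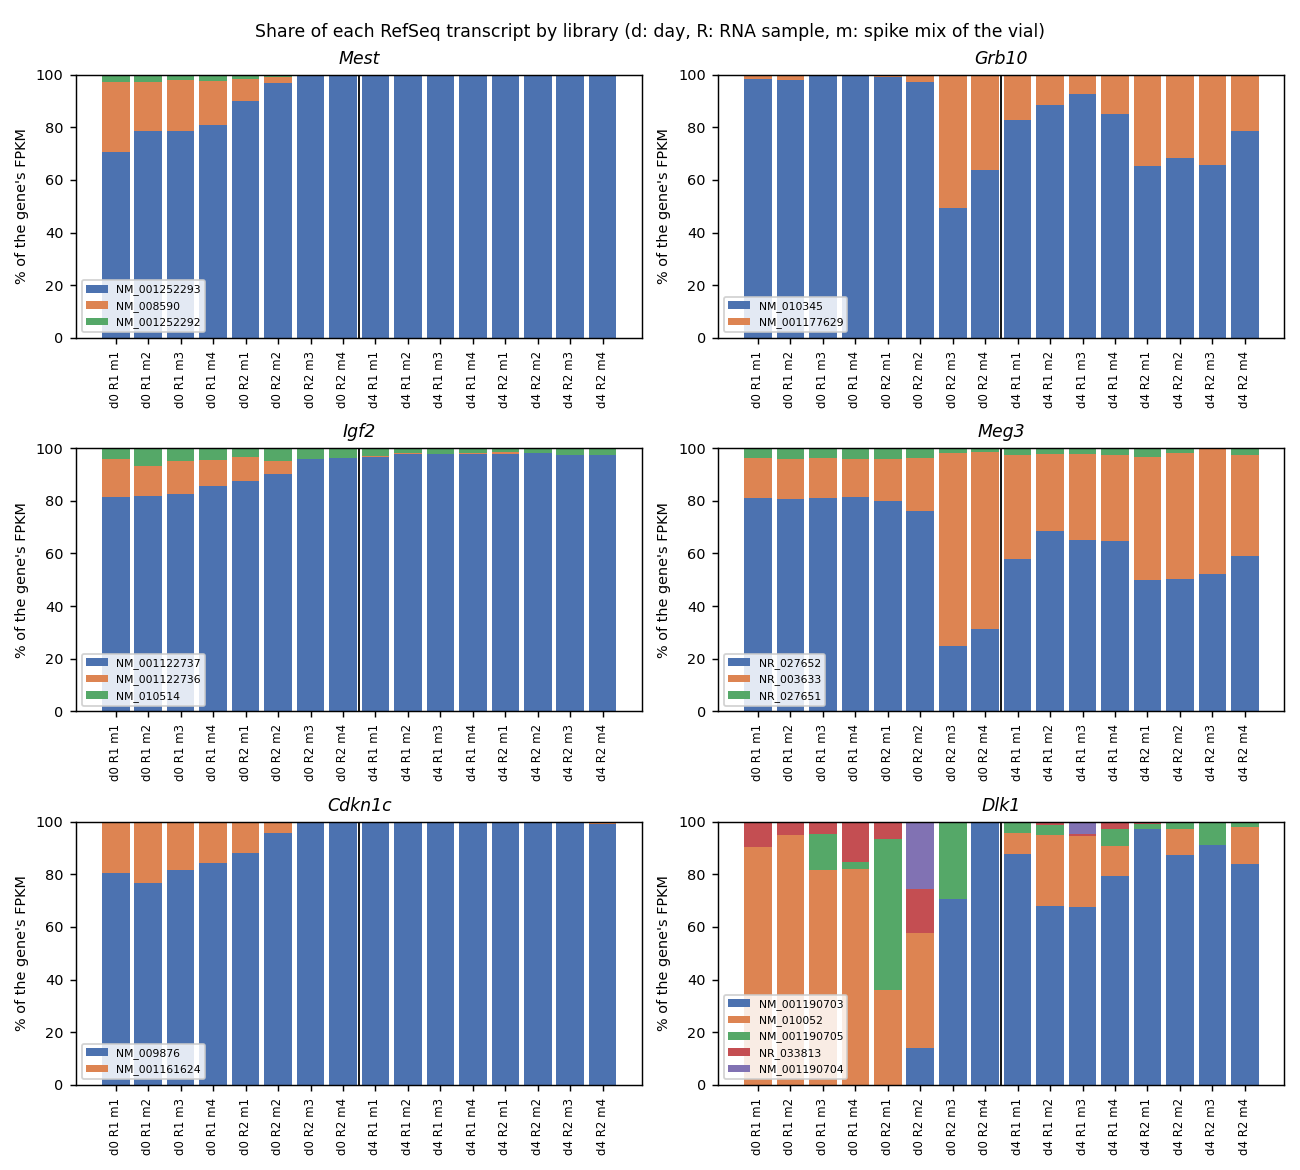
Share of each RefSeq transcript in the FPKM of Mest, Grb10, Igf2, Meg3, Cdkn1c and Dlk1 (stacked bars, percent) in the 16 libraries, with a line between day 0 and day 4. The mix 3 and mix 4 vials of RNA 2 of day 0 (bars 7 and 8) resemble the day 4 bars in Mest, Igf2 and Cdkn1c and go beyond them in Grb10 and Meg3. In Dlk1 the leading transcript of day 4, NM_001190703, makes up 70.7% and 100% of bars 7 and 8.

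Neighbours in the same clusters moved both with and against these genes. Of 22 other imprinted genes expressed from the paternal copy, 6 were called higher and 5 lower, where 16% and 14.5% of all genes were. Of 20 expressed from the maternal copy, 5 were higher and 5 lower. The medians of the log2 fold change were 0.19 and 0.01. Of these 42 genes, 10 were below 1 FPKM on both days (4 paternal, 6 maternal). Without the 2 divergent vials the counts were 9 and 8 for the paternal list and 8 and 8 for the maternal list, beside 27.1% and 33.6% of all genes.

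In the Peg3 cluster of chromosome 7, Usp29 and Zim1 rose along with Peg3. Usp29, transcribed away from Peg3, went from 1.29 ± 0.246 to 5.65 ± 0.166 FPKM (SD, n = 2 RNA samples, log2 2.06, limma adjusted p = 0.0125), and Zim1, a maternally expressed zinc finger gene, from 1.93 ± 0.0352 to 24.5 ± 0.749 FPKM (log2 3.595, limma adjusted p = 0.0046). Around Peg10 on chromosome 6, genes rose where Peg10 fell. Ppp1r9a, for the actin-binding protein neurabin, went from 3.003 ± 0.261 to 17.7 ± 0.816 FPKM (log2 2.52, limma adjusted p = 0.0054). Asb4 (log2 2.01, limma adjusted p = 0.0416) and the calcitonin receptor gene Calcr (log2 2.47, limma adjusted p = 0.0116) were also higher. Sgce, the paternally expressed gene next to Peg10, which was picked after its values were seen, went from 12.7 ± 0.736 to 20.1 ± 0.104 FPKM (log2 0.65, limma adjusted p = 0.0421).

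On chromosome 12, Mirg, a maternally expressed host of microRNAs, fell like Meg3 (log2 -2.07, limma adjusted p = 0.0354), with libraries of 1.75 to 13.2 FPKM at day 0 that overlapped the 1.55 to 3.06 FPKM of day 4. Rian, which lies between Meg3 and Mirg and was picked after its values were seen, held 141.4 ± 19.4 and 163.0 ± 3.59 FPKM and was not called (log2 0.21, limma adjusted p = 0.389). Near Cdkn1c on chromosome 7, the maternally expressed growth inhibitor of the placenta Phlda2 fell from 79.6 ± 61.2 to 0.151 ± 0.0555 FPKM (log2 -8.07, limma adjusted p = 0.0072), opposite to Cdkn1c. Its day 0 libraries were spread from 10.6 to 144.1 FPKM, all above day 4.

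In other clusters the called genes included Airn, the non-coding RNA that silences Igf2r on the paternal copy, at 1.35 ± 0.0672 and 8.13 ± 0.139 FPKM (log2 2.51, limma adjusted p = 0.0065). Igf2r, the receptor that clears Igf2, picked after its values were seen, was not called (log2 -0.53, limma adjusted p = 0.162). Nnat (log2 2.29) and Ndn (log2 1.35) were higher, and Atp10a (log2 -3.07), Magel2 (log2 -2.88), Slc38a4 (log2 -1.69), Sfmbt2 (log2 -1.26) and Snrpn (log2 -1.03) were lower. Ndn rose and its neighbours Magel2 and Snrpn on chromosome 7 fell, all of them expressed from the paternal copy. Of 2 more paternally expressed neighbours, picked after their values were seen, Mkrn3 was also higher (log2 1.02, limma adjusted p = 0.0266). Peg12 was not called (log2 0.54, limma adjusted p = 0.104). Slc22a18, also called lower, was below 1 FPKM on both days.

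**Figure D5:**
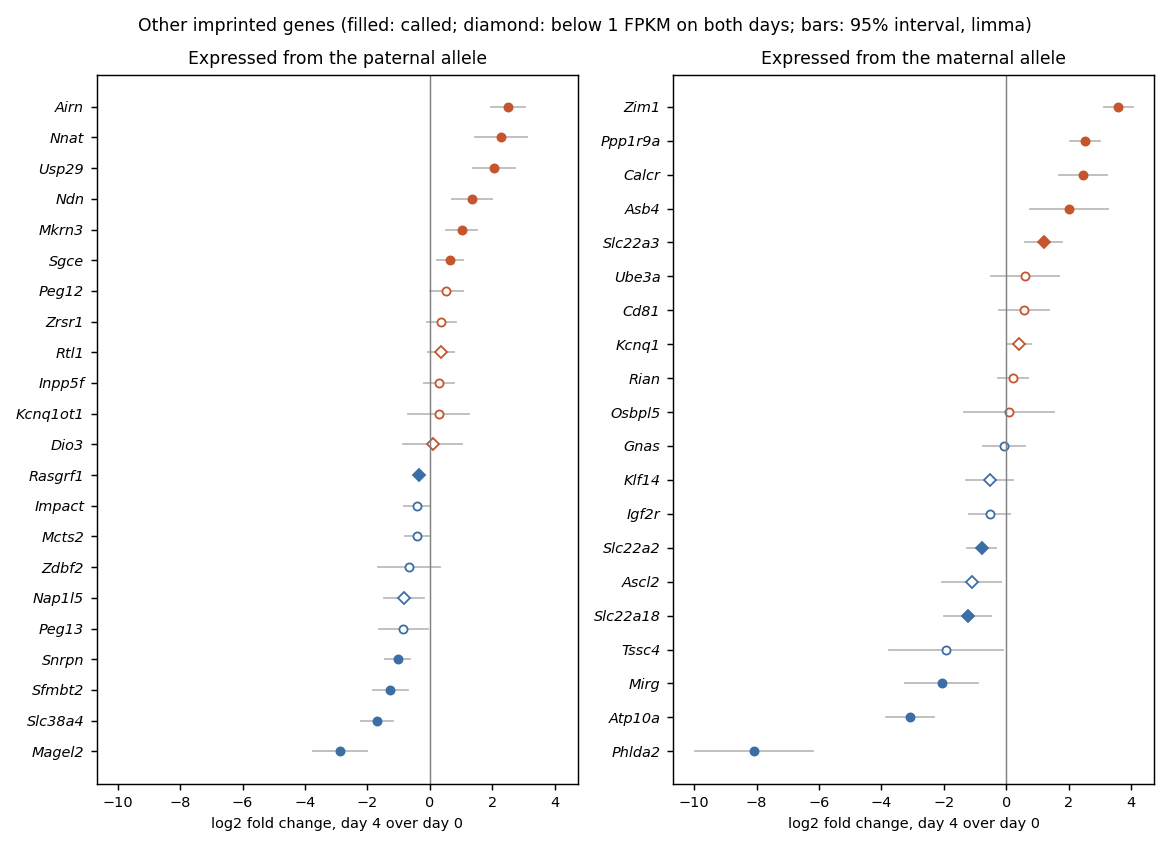
Log2 fold changes (day 4 over day 0, FPKM + 0.1, bars 95% interval from limma) of 22 paternally and 20 maternally expressed imprinted genes; filled symbols were called and diamonds were below 1 FPKM on both days. Both panels hold falls and rises, and the extremes, Phlda2 at -8.07 and Zim1 at 3.595, are both in the maternal panel.

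Of 12 genes of IGF and insulin signalling, in which Igf2 and Grb10 act, 5 were called higher and 1 lower, beside 16% and 14.5% of all genes (7 and 4 without the 2 divergent vials, beside 27.1% and 33.6%). Igfbp5, an IGF binding protein, went from 3.22 ± 0.814 to 135.7 ± 10.0 FPKM (log2 5.37, limma adjusted p = 0.0046). Igfbp6 (log2 4.22), the ligand gene Igf1 (log2 2.78) and the adaptor gene Irs1 (log2 0.86) were higher, and Irs2 was lower (log2 -3.93, limma adjusted p = 0.0332) with libraries that overlapped between the days. Of 7 genes listed for imprint maintenance, 1 was higher and 3 were lower, beside 16% and 14.5% of all genes (2 and 5 without the 2 divergent vials, beside 27.1% and 33.6%). The maintenance methyltransferase gene Dnmt1 (log2 -1.56, with libraries that overlapped between the days), its partner Uhrf1 (log2 -1.65) and Dppa3 (log2 -1.33) were lower, and Zfp445, for a zinc finger protein bound at imprinted regions, was higher (log2 0.98). Methylation was not measured.

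Markers of several cell types also differed between the days, where 16% of all genes were called higher and 14.5% lower. The summed level of 8 pluripotency markers was 118.7 and 157.7 FPKM in the RNA samples of day 0 and 5.49 and 6.98 at day 4, with 7 called lower. That of 8 endoderm markers was 15.2 and 16.8 FPKM at day 0 and 78.1 and 78.5 at day 4, with 5 higher. Gata6 (6.36 and 54.4 FPKM) and Gata4 (6.60 and 18.6), singled out after their values were seen, made up most of this sum, and 4 of the 8 were below 1 FPKM on both days. Among 8 mesoderm and mesenchyme markers 3 were higher and 3 lower (sums of 171.8 and 200.4 FPKM, then 222.3 and 236.2), among 8 neural markers 3 and 3 (29.7 and 44.8 FPKM, then 50.5 and 50.6), and among 5 trophoblast markers, 4 of them below 1 FPKM on both days, 1 and 2 (31.5 and 57.8 FPKM, nearly all Cdx2, then 0.506 and 0.515). Tpbpa was at 0 in all day 0 libraries and Prl3d1 in all day 4 libraries. Without the 2 divergent vials 27.1% of all genes were called higher and 33.6% lower. The marker counts, higher and lower, were then 0 and 7 (pluripotency), 6 and 1 (endoderm) and 3 and 4 (mesoderm and mesenchyme). They were 4 and 3 for the neural and 1 and 1 for the trophoblast markers. The part of cell composition in the changes of the imprinted genes was not tested, and in such bulk RNA fewer cells of a type and less RNA per cell cannot be told apart.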

How the data were processed

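Total RNA of R1 embryoid bodies, depleted of ribosomal RNA, was sequenced with strand information in 16 libraries from 4 RNA samples. The authors aligned the reads to mm10 RefSeq transcripts and spike-in sequences with Bowtie2, estimated FPKM per transcript with RSEM and scaled the libraries by TMM; the submitters' processing notes name Bowtie2 2.1.0, RSEM 1.2.18 and TopHat2 2.0.10. The table was read as deposited FPKM, which holds no fragment counts, and the read totals that the study lists were not used here, so no counting error is given (summed RefSeq FPKM 408168 to 616368 per library).

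Days were taken from the labels, and RNA sample and mix of each library from the study's supplementary table. The 48 spike-in rows were left out. Symbols and transcript GC came from RefSeq and GENCODE tables (99.2% of rows matched). FPKM was summed per gene, averaged over the 4 vials and compared on log2(FPKM + 0.1), 2 against 2 RNA samples, with limma 3.58.1 (lmFit, eBayes with trend, Benjamini-Hochberg; R 4.3.3) over 20497 genes or 28214 transcripts above 0 in any library. The p-values measure only the spread between these RNA samples. The labels do not pair the days, but the study describes the whole procedure as carried out again for the second replicate, and the differences between RNA 1 and RNA 2 correlated between the days over 11585 genes (r = 0.768, and 0.620 without the 2 divergent vials), so a replicate block was fitted as an alternative. On simulated data with 6000 of 20497 genes changed, 84.0% of log2 changes of 2 and 93.3% of 3 were recovered, with 3.94% false calls. With 200 changed genes 9% and 33% were recovered, so a gene that is not called may still have changed. For transcripts the shares were 74.6% and 85.4% with 6000 changed (5.31% false calls) and 0% for both sizes with 200. Only features averaging more than about 1 FPKM were changed. The simulated noise was independent between features and held no shift of GC-rich transcripts, so the share of false calls in the real data was not measured.

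The members and gene lists were chosen with earlier results of these data known. All members were named; other genes were named from set lists, up to 4 called genes per list and direction with the largest absolute change, exceptions being stated. GC correction subtracted each library's median deviation in 20 GC bins, set on 13894 transcripts averaging 1 FPKM or more; it was added after the data were seen, as were its fit and the replicate block without the 2 divergent vials. Transcript models are from GENCODE (GRCm38) and gene coordinates from RefSeq (GRCm38.p6), the build of mm10, with promoter windows limited to the 250 bases before the start. H19 is not reported here.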

Additional observations from a re-analysis of the deposited data

How the results depend on the processing

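The 9 genes were refitted under 19 alternatives. Of the values, 134 kept direction and side of the threshold, 27 kept direction but lost the call, 8 gained one (Grb10 in 6, Mest in 2) and 2 turned: Mest at -0.0597 with the GC correction and -0.102 with the GC correction without the 2 divergent vials. Of the 27, 14 come from the fits with 1 RNA sample of day 4, in which no gene was called; the log2 fold changes of the 7 called genes kept their sign there. The GC correction, and the fits without the 2 vials that add it or the replicate block, were chosen after seeing the data.

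Leaving out 1 RNA sample in turn, where the lone sample is assumed to vary like the others, gave 0 to 3671 genes higher and 0 to 5553 lower, 0 to 3048 transcripts higher and 0 to 4747 lower, 0 to 5 and 0 to 2 of the imprinted genes, and 0 to 6 and 0 to 5 of their transcripts. In limma without RNA 1 of day 0, without RNA 1 of day 4 and without RNA 2 of day 4, 0 transcripts passed (smallest adjusted p = 0.0508, 0.116 and 0.110), with 11395, 5766 and 5476 at an unadjusted p of at most 0.05.

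Against 3281 genes higher and 2972 lower, and 2875 transcripts higher and 2446 lower, fitting without the 2 divergent vials called 5552 and 6880 genes, 6262 and 8155 transcripts, and 9 imprinted transcripts lower in place of 3. The GC correction called 5601 and 4951 genes, 5245 and 4865 transcripts and 5 imprinted transcripts lower, and without the 2 vials 6961 and 6205 genes, 7545 and 7304 transcripts and 8. The mix 4 vials alone called 1044 and 367 genes, 225 and 73 transcripts, 2 and 0 imprinted genes and 1 and 0 of their transcripts. In limma 7 imprinted genes and 8 of their transcripts then had an unadjusted p of at most 0.05. So did 5171 of all 20497 genes and 5713 of all 28214 transcripts. Without a filter 1644 genes and 1385 transcripts were lower, with 3 imprinted genes higher and 1 lower, and with a mean of at least 1 FPKM 2092 genes were higher. Only Peg10 remained lower among the imprinted genes with a pseudocount of 1, without the trend, with log2 values averaged over vials (1462 transcripts lower) or without the mix 1 vial of RNA 1 of day 4, which made 1 gene each. At an equal FPKM sum 1 imprinted transcript was lower. The cause of these differences was not tested.

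With the replicate block, which rests on the study's account of a procedure carried out again and not on the labels, 5960 genes, 5898 transcripts and 7 imprinted transcripts were lower and Grb10 was called (log2 0.53, limma adjusted p = 0.0434), and no other imprinted gene changed its call. The replicate block without the 2 vials called 6071 and 7797 genes, 6497 and 8830 transcripts and 9 imprinted transcripts lower.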

Other observations

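The 9 genes also varied between libraries of the same day. After the mean of each day was subtracted, the log2 levels of Meg3 and Dlk1 rose and fell together over 16 libraries (Pearson's r = 0.957), while Meg3 and Peg10 ran in opposite directions (r = -0.893). Over the 14 libraries without the 2 divergent vials these values were 0.791 and -0.625, and the highest r was that of Cdkn1c and Plagl1 (0.849). Over the 36 pairs the median r was 0.0757 with 16 libraries and 0.396 with 14. With the mean of each RNA sample subtracted in place of that of each day, the median was -0.558 with 16 libraries and 0.243 with 14, and over 14 libraries r was 0.547 for Meg3 and Dlk1 and 0.606 for Cdkn1c and Plagl1. The libraries come from 4 RNA samples and share the differences in GC-rich transcripts, so these values are descriptions.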
